A study of Mus musculus with 12 samples.

Results

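The 10 genes described here are chemokine ligands: Cxcl1, Cxcl2, Cxcl9, Cxcl10, Cxcl12, Cxcl13, Cxcl16, Ccl2, Ccl6 and Ccl9. They were taken by gene symbol from a table of 54838 gene identifiers counted in mouse liver, and all 10 were found in it. The livers came from adult female C57BL/6J mice. Their drinking water was plain or held 25 mM ZnSO4 over 7 days, after which they were injected with PBS alone or with dexamethasone (Dex, 200 µg). Dex is a synthetic glucocorticoid that activates the glucocorticoid receptor. RNA was taken 2 h after the injection, from 3 mice in each of the 4 groups, called water-PBS, water-Dex, zinc-PBS and zinc-Dex. All 4 groups were injected, so none shows an uninjected liver. The labels give no exact age and describe the 3 libraries of a group as biological replicates. The labels of these 12 samples name no inflammatory challenge.

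Chemokines are small secreted proteins that direct the migration of leukocytes by binding receptors coupled to G proteins. Some are made all the time and keep resident cells in place, while others are made by hepatocytes, Kupffer cells (the resident macrophages of the liver), endothelial cells and stellate cells when NF-kB or interferon signalling is switched on. Glucocorticoids are known to repress many of the inducible ones through the glucocorticoid receptor. The members are described by role: the neutrophil attractants Cxcl1 and Cxcl2, the interferon-induced Cxcl9 and Cxcl10, the monocyte attractant Ccl2, the macrophage-lineage ligands Ccl6 and Ccl9, and the ligands made without a stimulus, Cxcl12, Cxcl13 and Cxcl16.

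The genes lie in clusters, given here in GRCm38 (mm10) coordinates from the GENCODE M21 annotation. On chromosome 5, Cxcl1 (chr5:90891241-90893115, plus strand) and Cxcl2 (chr5:90903871-90905938, plus strand) are neighbours, as are Cxcl9 (chr5:92321347-92328079, minus strand) and Cxcl10 (chr5:92346638-92348889, minus strand). Cxcl13 (chr5:95956951-95961068, plus strand) is on the same chromosome. On chromosome 11 lie Ccl2 (chr11:82035571-82037453, plus strand), Ccl9 (chr11:83572919-83578636, minus strand), Ccl6 (chr11:83587882-83593087, minus strand) and Cxcl16 (chr11:70453983-70459984, minus strand). Cxcl12 is on chromosome 6 (chr6:117168535-117181367, plus strand). All 10 are protein coding. A gene on the opposite strand overlaps 4 of them: Art3 overlaps Cxcl10, Zmynd15 overlaps Cxcl16, Gm17268 overlaps Ccl2 and E230016K23Rik overlaps Ccl6. The strand setting of the counting is not given in the sources used here, so reads of such a pair cannot be told apart. Gm17268 and E230016K23Rik had 0 counts in the 12 libraries, Art3 had 20 to 41 counts per library and Zmynd15 had 17 to 52. The levels of these 4 ligands are therefore uncertain, to an extent that the counts of the overlapping genes do not bound. This holds most for Cxcl10 in the Dex groups, where its own counts were lower than those of Art3.

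The 250 bases before the RefSeq transcription start are shown for Cxcl1 and Cxcl10, which were lower together in the Dex livers, and for Ccl6 and Ccl9, which were higher there. They are RefSeq sequences of build GRCm38.p6, written 5′ to 3′ in the direction of each gene, from chr5:90890995-90891244, chr5:92348890-92349139, chr11:83593088-83593337 and chr11:83578637-83578886. Capitals mark matches on either strand to an NF-kB motif (kB, GGGNNNTTCC) or an interferon-stimulated response element (ISRE, GAAANNGAAA), where N is any base.
Cxcl1: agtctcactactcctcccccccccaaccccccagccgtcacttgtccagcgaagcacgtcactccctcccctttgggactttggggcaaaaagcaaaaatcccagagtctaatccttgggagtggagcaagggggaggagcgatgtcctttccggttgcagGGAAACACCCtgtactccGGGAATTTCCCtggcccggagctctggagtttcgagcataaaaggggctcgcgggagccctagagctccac
Cxcl10: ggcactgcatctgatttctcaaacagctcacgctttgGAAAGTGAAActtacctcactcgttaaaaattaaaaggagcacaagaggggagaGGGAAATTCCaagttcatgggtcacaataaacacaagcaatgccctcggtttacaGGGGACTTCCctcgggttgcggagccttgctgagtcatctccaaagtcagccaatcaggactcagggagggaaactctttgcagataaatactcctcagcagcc
Ccl6: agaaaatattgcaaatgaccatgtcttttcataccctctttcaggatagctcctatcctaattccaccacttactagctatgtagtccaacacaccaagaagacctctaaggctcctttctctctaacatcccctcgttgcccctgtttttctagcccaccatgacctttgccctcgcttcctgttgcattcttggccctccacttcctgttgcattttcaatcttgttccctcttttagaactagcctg
Ccl9: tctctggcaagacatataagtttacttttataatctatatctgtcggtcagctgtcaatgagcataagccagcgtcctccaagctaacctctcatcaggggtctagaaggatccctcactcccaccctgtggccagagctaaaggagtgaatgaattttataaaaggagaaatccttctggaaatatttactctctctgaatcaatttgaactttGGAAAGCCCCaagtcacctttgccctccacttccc
A RefSeq window was matched by symbol for 8 of the 10 genes. The kB letters were found in the windows of 4 of the 8 (Cxcl1, Cxcl2, Cxcl10 and Ccl9), against 4.65% of all 32851 windows of the same length. Cxcl1, Cxcl2 and Cxcl10 each held 2 stretches of them, counting overlapping matches as 1, and Ccl9 held 1. ISRE letters stood in the window of Cxcl10 and in 2.98% of all windows. The AP-1 letters TGANTCA stood in those of Cxcl10 and Ccl9, and in 6.75% of all windows. The letters of a glucocorticoid response element, GNACANNNTGTNC, were in none of the 8 and in 0.387% of all windows, which says only that these letters are not in these windows. Each match is a run of letters and not a measured binding site.

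Library totals lay between 9091152 and 12303527 counts. One library stood apart in the inflammatory genes: in zinc-PBS replicate 1, 27 of 9568 genes were more than 2-fold above each of the other 5 PBS libraries, against 0 to 4 genes for each of those 5 measured the same way. Its 3 leading genes were Cxcl1, Mup7 and Cxcl10. Fold changes of the members that use this library are therefore also given without it, singly or as a range. Values are counts divided by DESeq2 size factors (normalized counts), and a gene is said to be called when its adjusted p was under 0.05 and its log2 fold change (LFC) was beyond 0.8 in either direction, both from DESeq2 over all genes. An adjusted p under 0.05 is named separately where the LFC was smaller. In whole liver, fewer cells of a type and less RNA per cell cannot be told apart.

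**Figure D1:**
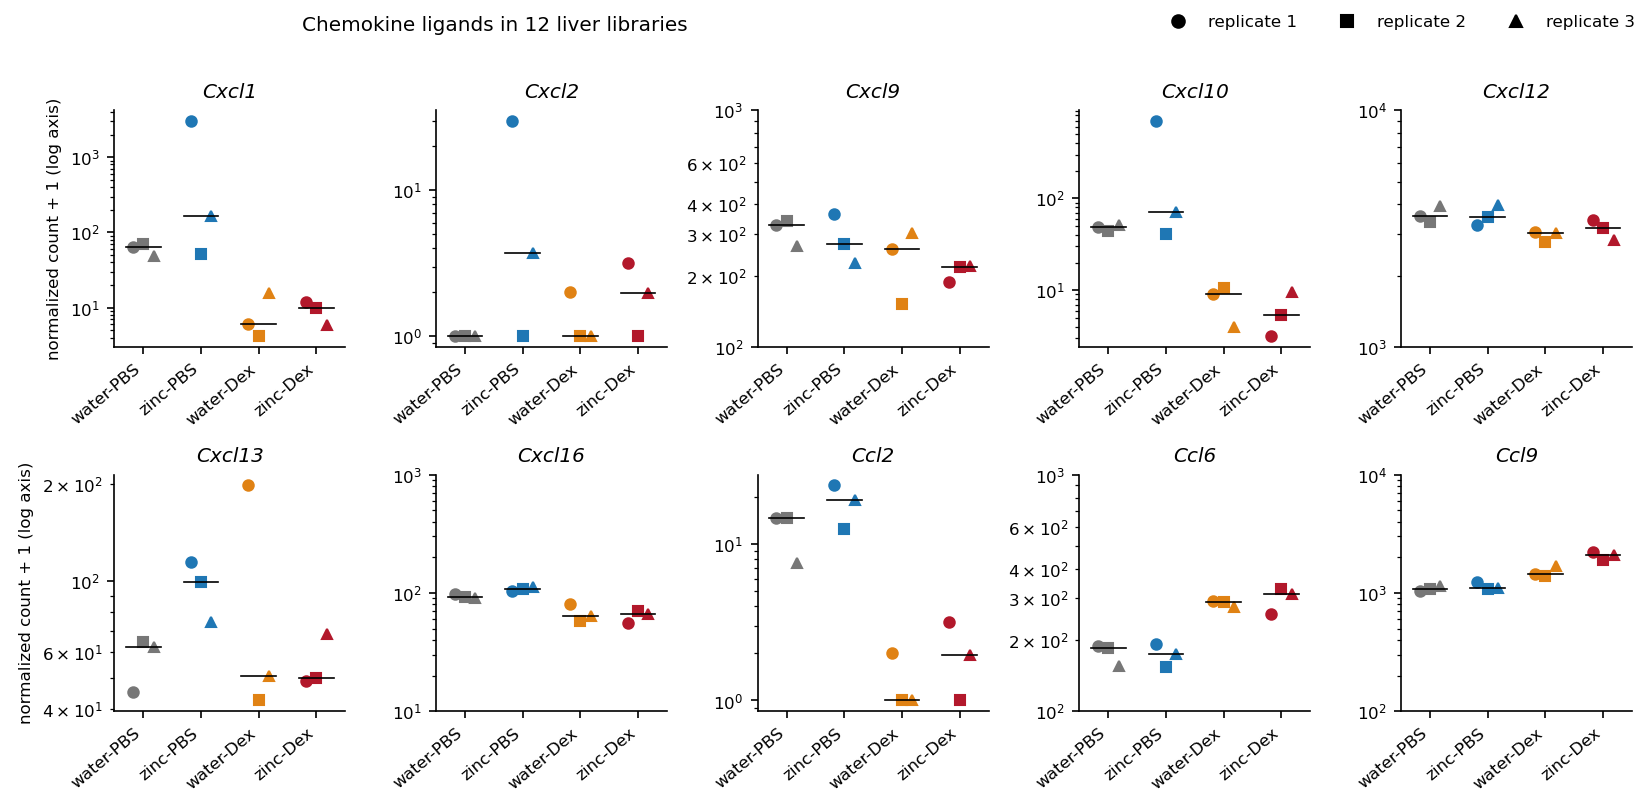
Normalized count plus 1 (log axis) of each ligand in the 12 libraries, by group. Circles, squares and triangles are replicates 1, 2 and 3 and the bar is the group median. Zinc-PBS replicate 1 reached 3021 for Cxcl1 and 694 for Cxcl10, and the Dex groups lay below both PBS groups for Cxcl1, Cxcl10, Cxcl16 and Ccl2 and above them for Ccl6 and Ccl9.

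With Dex, Cxcl10 and Ccl2 were called lower in plain-water mice, the call of Cxcl10 being lost in 9 of 20 alternative fits. In zinc-drinking mice Cxcl1, Cxcl10 and Ccl2 were called lower and Ccl9 higher. Without a call, Cxcl1 was also lower and Ccl9 higher in plain-water mice, and Ccl6 higher in both, all without overlap. No member was called for a difference in the Dex effect between zinc and plain water. In water-Dex against water-PBS, 2 of the 9 members with an adjusted p were called lower and 0 higher, where 4.79% of all genes tested were called lower and 4.89% higher; 5 had an adjusted p under 0.05, against 21.6% of all genes. In zinc-Dex against zinc-PBS, 3 were called lower and 1 higher, with 5.11% of all genes lower and 5.39% higher; 6 had an adjusted p under 0.05, against 22.2%. The count rose from 4 to 5 without zinc-PBS replicate 1, as Ccl6 was added. For zinc-Dex against water-PBS, where both treatments differ, Cxcl10 and Ccl2 were called lower and Ccl9 higher, with 5.63% of all genes lower and 5.59% higher. The Dex comparisons share control groups, so their values are set side by side and not counted as separate evidence.

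No member was called for zinc alone. In zinc-PBS against water-PBS DESeq2 called 0 of 9 members, with 0.128% of all genes called. An unadjusted p under 0.05 was found for 3 members in DESeq2, 2 in edgeR and 0 in limma voom, and both of the latter also called 0. Without zinc-PBS replicate 1, 0 members were called and 0 had an unadjusted p under 0.05 in DESeq2. For the 7 members other than Cxcl1, Cxcl2 and Cxcl10, the LFC for zinc without Dex ran from -0.12 (Cxcl9) to 0.75 (Cxcl13) with that library and from -0.33 to 0.60 without it, at the same ends. In zinc-Dex against water-Dex 0 of 8 members were called, with 0.469% of all genes called. Ccl9 alone had an adjusted p under 0.05 there, in DESeq2, edgeR and limma voom alike, where 1.35% of all genes had one in DESeq2. The interaction, which asks whether the Dex effect differed between zinc and plain water, called 0 of 8 members in DESeq2, with 0.0577% of all genes called. Unadjusted p values under 0.05 numbered 4 in DESeq2, 2 in edgeR and 1 in limma voom, and neither edgeR nor limma voom called a member. The share of all genes with an unadjusted p under 0.05 is not given for either comparison. The counts of members with such a p can therefore not be read as an excess.

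**Figure D2:**
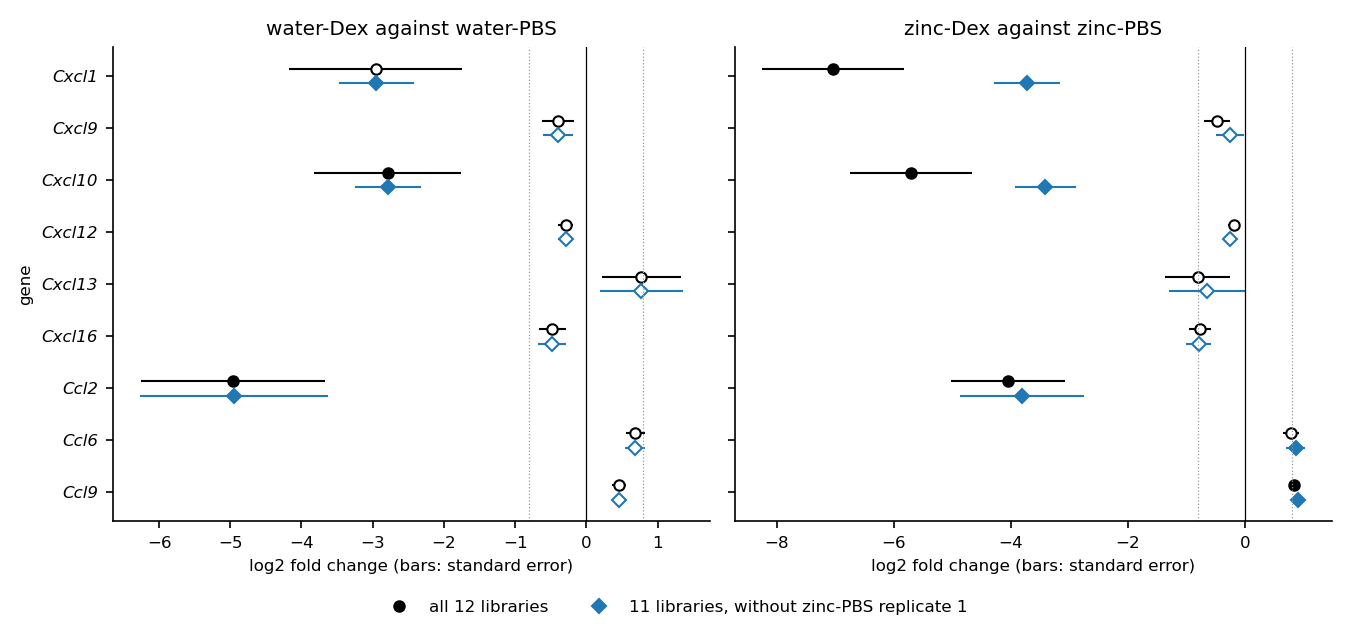
LFC of 9 ligands for water-Dex against water-PBS (left) and zinc-Dex against zinc-PBS (right), with standard errors. Black circles are the fit of 12 libraries, blue diamonds the fit of 11 libraries without zinc-PBS replicate 1, filled symbols are called and the dotted lines mark an LFC of 0.8 in either direction. The LFC of Cxcl1 in zinc-drinking mice moved from -7.04 to -3.72 when that library was left out, and that of Ccl9 from 0.85 to 0.91.

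Cxcl1 encodes a ligand of Cxcr2 that draws neutrophils. It stood at 63.0, 70.1 and 47.2 normalized counts in the water-PBS livers (replicates 1 to 3). In zinc-PBS it stood at 3021, 50.7 and 163. Water-Dex livers had 5.08, 3.19 and 14.8, and zinc-Dex livers 10.9, 8.89 and 4.81. Every Dex library was below every PBS library, while zinc-PBS overlapped water-PBS and spread over more than an order of magnitude. The LFC for zinc without Dex was 4.16 ± 1.18 (SE; adjusted p = 0.101), and 0.83 ± 0.49 without replicate 1, at an unadjusted p of 0.0882 with no adjusted p given.

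For Dex in plain-water mice the LFC of Cxcl1 was -2.96 ± 1.22 with an adjusted p of 0.0647, so it was not called although the groups did not overlap. The estimate of spread in that fit includes zinc-PBS replicate 1. Without that library the LFC was -2.95 ± 0.52 and the adjusted p was 3.39e-07. Over 20 alternative fits the adjusted p ranged from 2.67e-09 to 0.467, and 5 of the 20 called it, among them the fit of the 6 libraries compared. In zinc-drinking mice Cxcl1 fell by 7.04 ± 1.21 on the log2 scale (adjusted p = 1.19e-07), a value that moved with replicate 1: without it, Cxcl1 fell by 3.72 ± 0.56 (adjusted p = 8.32e-10). One of 20 alternatives, limma voom, did not call it, and the adjusted p ranged from 7.34e-11 to 0.246. Zinc-Dex and water-Dex overlapped, with an LFC of 0.08 and a 95% interval from -2.37 to 2.53. For zinc-Dex against water-PBS the LFC was -2.88 ± 1.22 (adjusted p = 0.0679), and -2.89 ± 0.52 (adjusted p = 5.30e-07) without zinc-PBS replicate 1, over a range of 7.63e-10 to 0.495.

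Cxcl2, a second Cxcr2 ligand, was near the floor of detection. It had 0 counts in the 3 water-PBS libraries, 1 count over the 3 water-Dex and 3 over the 3 zinc-Dex libraries. Of the 35 counts in zinc-PBS all but 3 came from replicate 1, which stood at 28.9 normalized counts beside 0 and 2.72. Taking 3 counts over the group as the floor, zinc-PBS was at least 10.3-fold higher than water-PBS over the group. The ratio of zinc-PBS to zinc-Dex was 9.95, with a 95% counting interval from 3.14 to 50.5. These intervals and floors cover counting error only, and neither value holds without replicate 1, which leaves 3 counts in zinc-PBS. With its default filtering, DESeq2 gave Cxcl2 no adjusted p in the fit of 12 libraries.

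Cxcl10, an interferon-induced ligand of Cxcr3 that attracts activated T cells, had 48.3, 43.7 and 50.5 normalized counts in water-PBS. The zinc-PBS libraries had 694, 40.2 and 70.6. Those of water-Dex had 8.12, 9.57 and 2.97, and those of zinc-Dex 2.17, 4.44 and 8.65. As for Cxcl1, no Dex library reached a PBS library, and replicate 1 stood alone in zinc-PBS. Zinc without Dex gave an LFC of 2.50 ± 0.98 (adjusted p = 0.52), and 0.22 ± 0.39 without replicate 1 (unadjusted p = 0.566).

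In plain-water mice Cxcl10 fell by 2.79 ± 1.03 with Dex (adjusted p = 0.0337). Without zinc-PBS replicate 1 the LFC remained at -2.79 and the adjusted p was 3.25e-08. The call was lost in 9 of 20 alternatives, among them edgeR (adjusted p = 0.151) and limma voom (0.244), and the adjusted p ranged from 3.25e-08 to 0.244. With zinc it fell by 5.71 ± 1.04 (adjusted p = 6.33e-07). Without replicate 1 that LFC was -3.41 ± 0.53 (adjusted p = 2.07e-09, the lowest of a range that reached 0.107 in limma voom). The interaction was -2.92 for Cxcl10 and -4.08 for Cxcl1, each with an adjusted p of 1.0, and -0.62 and -0.76 without replicate 1. For zinc-Dex against water-PBS the LFC was -3.21 ± 1.04 (adjusted p = 0.0119), and the call was lost in edgeR, in limma voom and without zinc-Dex replicate 1, over a range of 3.93e-09 to 0.259. Zinc-Dex did not differ detectably from water-Dex, with an LFC of -0.42 and a 95% interval from -2.55 to 1.70.

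Cxcl9, the neighbour of Cxcl10 and induced chiefly by interferon gamma, was called in no comparison. Its normalized counts were 328, 340 and 267 in water-PBS and 365, 270 and 225 in zinc-PBS. With Dex they were 258, 151 and 301 on plain water and 188, 217 and 218 on zinc. Water-Dex overlapped both PBS groups, whereas zinc-Dex lay below each of them. The LFC of zinc-Dex against water-PBS was -0.59 ± 0.23 (adjusted p = 0.0404), short of the fold threshold. Against their own PBS groups the LFC was -0.40 ± 0.22 in water-Dex (adjusted p = 0.22) and -0.47 ± 0.23 in zinc-Dex (adjusted p = 0.131; -0.25 without zinc-PBS replicate 1).

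Ccl2, the main ligand of Ccr2 and a monocyte attractant, was low in all groups and lowest with Dex. It stood at 13.7, 13.7 and 6.59 normalized counts in water-PBS and at 22.6, 11.4 and 18.1 in zinc-PBS. Water-Dex libraries had 1.02, 0 and 0, and zinc-Dex libraries 2.17, 0 and 0.961. The Dex and PBS libraries did not overlap, and the 2 PBS groups did. Summed over 3 libraries, 34 counts in water-PBS faced 1 count in water-Dex, a ratio of 33.7 with a 95% counting interval from 5.65 to 1370. The corresponding ratio of zinc-PBS to zinc-Dex was 16.5, with an interval from 5.37 to 82.2, from 58 and 3 counts. Both intervals cover counting error only and leave out the spread between mice. Ccl2 was called lower in water-Dex against water-PBS (adjusted p = 0.00114), in zinc-Dex against zinc-PBS (adjusted p = 3.20e-04) and in zinc-Dex against water-PBS (adjusted p = 0.00343). These 3 calls were kept in all 20 alternatives. Among them is the fit without zinc-PBS replicate 1, where the LFC of zinc-Dex against zinc-PBS was -3.81, against -4.05 with it. With at most 3 counts in a Dex group, a zinc effect under Dex was not detectable at this depth.

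Ccl6 and Ccl9 are neighbouring genes for ligands made by cells of the macrophage lineage, Ccl9 being a ligand of Ccr1. Ccl9 had 1033, 1080 and 1151 normalized counts in water-PBS and 1233, 1089 and 1098 in zinc-PBS. With Dex it had 1431, 1389 and 1678 on plain water and 2197, 1903 and 2080 on zinc. The Dex groups lay above both PBS groups without overlap, and zinc-Dex lay above water-Dex. Dex raised Ccl9 by 0.85 ± 0.10 on the log2 scale with zinc (adjusted p = 3.54e-16), which was called, and by 0.46 ± 0.10 with plain water (adjusted p = 5.10e-05), which is short of the fold threshold. Zinc with Dex stood 0.46 ± 0.10 above Dex alone (adjusted p = 0.0013; from 1.16e-04 to 0.0486 over 20 alternatives). Without Dex the LFC for zinc was 0.07 ± 0.10 (adjusted p = 1.0, 95% interval from -0.13 to 0.26). The interaction of Ccl9 was 0.39 ± 0.14 with an unadjusted p of 0.00561 and an adjusted p of 0.821 (0.45 and 0.367 without zinc-PBS replicate 1), so the Dex effect was not shown to differ with zinc. In zinc-Dex against water-PBS the LFC was 0.92 ± 0.10 (adjusted p = 1.36e-18). Its 2 calls were kept in all 20 alternatives.

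Ccl6 had 188, 185 and 155 normalized counts in water-PBS and 191, 153 and 174 in zinc-PBS. With Dex it had 291, 287 and 274 on plain water and 257, 327 and 311 on zinc. Each Dex library was above each PBS library, and within Dex and within PBS the zinc and water groups overlapped. Dex raised it by 0.69 ± 0.14 with plain water (adjusted p = 1.12e-05) and by 0.79 ± 0.14 with zinc (adjusted p = 1.89e-07), both under the fold threshold. Without zinc-PBS replicate 1 the LFC with zinc was 0.87 ± 0.16 (adjusted p = 6.40e-07) and was called, as it was in 3 of 20 alternatives, over which the adjusted p ran from 4.78e-08 to 1.18e-04. Zinc had an LFC of -0.03 without Dex and 0.07 with it, with 95% intervals from -0.31 to 0.25 and from -0.19 to 0.33.

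Cxcl12, which binds Cxcr4 and retains leukocytes and progenitors in tissues, was the ligand with the highest counts. It stood at 3567, 3374 and 3923 normalized counts in water-PBS and 3273, 3532 and 3992 in zinc-PBS. With Dex it stood at 3045, 2773 and 3038 on plain water and at 3444, 3168 and 2822 on zinc. Water-Dex was below water-PBS without overlap, and zinc-Dex overlapped zinc-PBS. The LFC was -0.29 ± 0.10 in plain-water mice (adjusted p = 0.0246) and -0.19 ± 0.10 in zinc-drinking mice (adjusted p = 0.18). Without zinc-PBS replicate 1 the latter was -0.26 (adjusted p = 0.0957) and the groups did not overlap. For zinc the LFC was -0.01 without Dex, with a 95% interval from -0.21 to 0.19, and 0.09 with Dex, with one from -0.11 to 0.29.

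Cxcl16, a membrane-bound ligand of Cxcr6 that also scavenges oxidized lipids, had 97.7, 91.9 and 89.0 normalized counts in water-PBS and 102, 107 and 110 in zinc-PBS. With Dex it had 79.2, 57.4 and 62.3 on plain water and 54.3, 68.9 and 65.4 on zinc. All 6 Dex libraries were below all 6 PBS libraries. The fall with zinc was 0.76 ± 0.19 on the log2 scale (adjusted p = 5.55e-04), which was -0.79 without zinc-PBS replicate 1. With plain water the LFC was -0.48 ± 0.19 (adjusted p = 0.0512), and in zinc-Dex against water-PBS it was -0.56 ± 0.19 (adjusted p = 0.0186). Neither exceeded the fold threshold. Zinc-PBS lay above water-PBS without overlap, but the LFC of 0.20 ± 0.18 had an adjusted p of 1.0.

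Cxcl13, the B-cell attractant that binds Cxcr5, had 44.1, 63.7 and 61.5 normalized counts in water-PBS and 114, 97.9 and 73.3 in zinc-PBS. With Dex it had 197, 41.5 and 49.5 on plain water and 47.8, 48.9 and 67.3 on zinc. Water-Dex replicate 1 stood above the other 11 libraries, and the remaining Dex libraries lay between 41.5 and 67.3. The 3 zinc-PBS libraries lay above the 3 water-PBS libraries, with an LFC of 0.75 ± 0.55 (adjusted p = 1.0). For Dex the LFC was 0.77 ± 0.56 in plain-water mice (adjusted p = 0.375) and turned to -0.31 without water-Dex replicate 1. It was -0.80 ± 0.56 in zinc-drinking mice (adjusted p = 0.343), and -0.65 without zinc-PBS replicate 1.

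To compare the ligands with one another, the normalized counts were divided by the summed exon length in kb. In water-PBS the level per kb was 443 ± 34.0 (SD, n = 3) for Cxcl12 and 357 ± 19.4 for Ccl9. It was 103 ± 13.0 for Cxcl9 and 98.0 ± 10.2 for Ccl6, whose ranges overlapped. Then came Cxcl13 at 49.1 ± 9.34, Cxcl1 at 32.1 ± 6.24 and Cxcl16 at 30.7 ± 1.47, the last pair with overlapping ranges, followed by Cxcl10 at 21.1 ± 1.55 and Ccl2 at 9.93 ± 3.58. In both Dex groups Ccl9 was first, at 492 ± 51.3 in water-Dex and 677 ± 48.7 in zinc-Dex, above Cxcl12 at 361 ± 19.0 and 385 ± 38.1 without overlap. With the length of the longest transcript instead of all exons, Cxcl12 stood at 525 against 499 for Ccl9 in water-Dex, so that this order depends on the length used there; in zinc-Dex Ccl9 was first with either length. Cxcl1 and Cxcl10 were at 4.11 ± 3.34 and 3.06 ± 1.54 per kb in water-Dex, with overlapping ranges. In zinc-PBS the mean of Cxcl1 was 575 ± 898 per kb, a mean that rests on replicate 1.

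**Figure D3:**
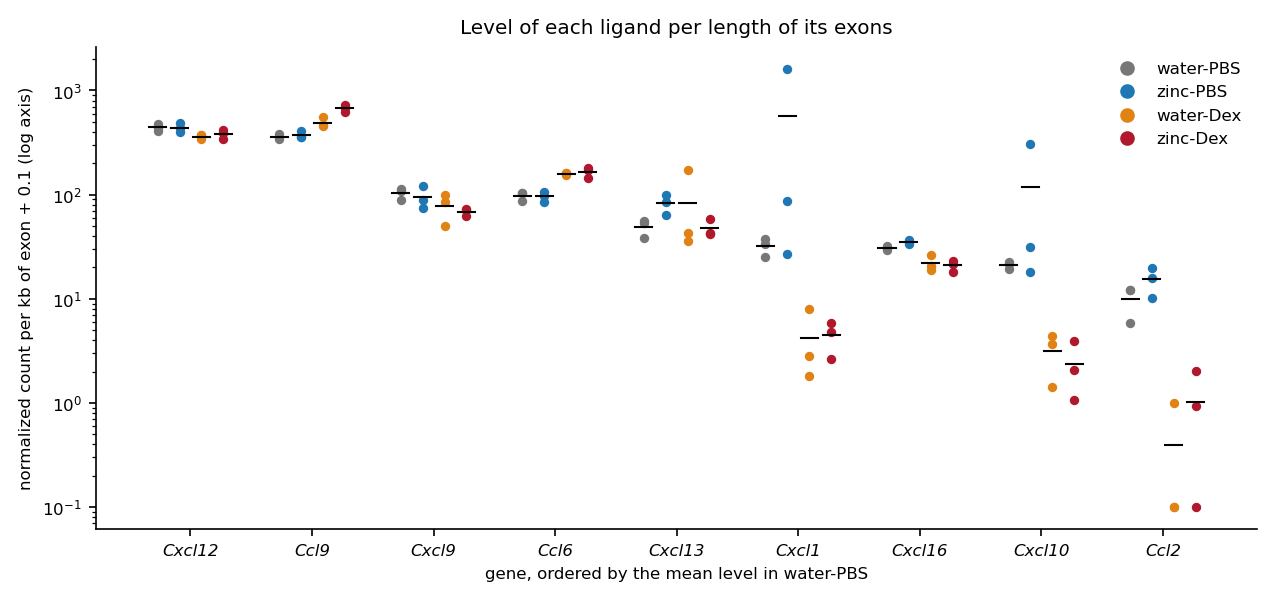
Normalized count per kb of exon plus 0.1 (log axis) of 9 ligands, ordered by their mean in water-PBS. Points are libraries, bars are group means, colours are groups and points at the bottom of the Ccl2 column are libraries with 0 counts. Cxcl12 and Ccl9 stand above the rest in every group except for the single high Cxcl1 library of zinc-PBS.

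In zinc-PBS replicate 1 Cxcl1 was 38.3-fold and Cxcl10 13.7-fold above the mean of the other 5 PBS libraries. Among the other members the ratio ran from 0.89 for Cxcl12 to 1.78 for Ccl2, Cxcl2 left aside for its low counts. Of 26 regulators and targets of NF-kB and interferon signalling, 10 were more than 2-fold above that mean. They included Tnfaip3, an inhibitor of NF-kB signalling, at 726 against 36.4 to 81.5 normalized counts. Nfkbiz, a nuclear cofactor of NF-kB, was at 918 against 82.2 to 139.7, and Socs3, an inhibitor of cytokine receptors, at 701 against 75.8 to 146. Of 16 acute phase genes 5 were more than 2-fold above, led by Saa1 at 2865 against 191 to 1002. The share of all genes more than 2-fold above that mean is not given. The 27 of 9568 genes named earlier rest on a stricter rule, so these list counts cannot be read as an excess.

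The summed neutrophil markers were at 116 normalized counts in this library and at 29.1 to 59.8 in the 5 others of the PBS groups. Of the 7 neutrophil markers 4 were highest in this library: S100a8 at 37.9, S100a9 at 60.5, Retnlg at 10.8 and Mmp8 at 7.22. Ly6g, Ngp and Camp had 0 counts there, but were also at most 0.905 normalized counts in the 5 others. None of the 8 Kupffer cell markers was highest in this library, and the share of all genes that were highest in it is not given. The part of these genes in the chemokine values of this library was not tested.

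**Figure D4:**
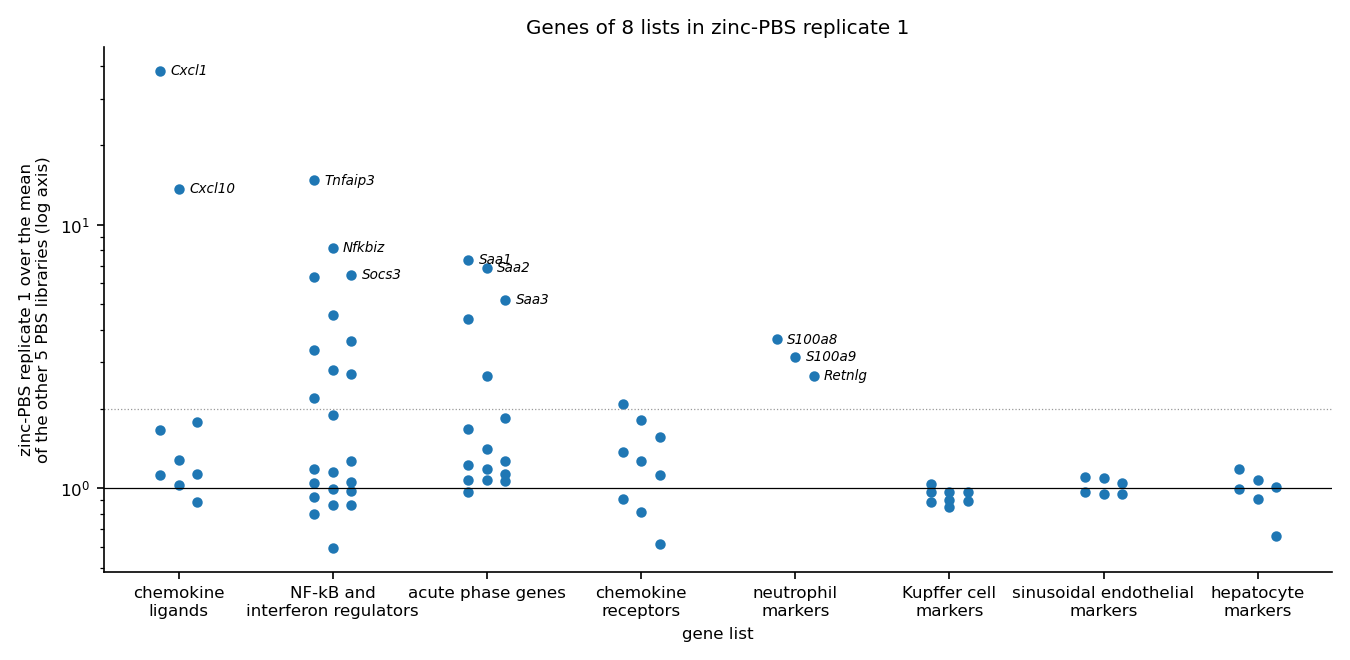
Level of each gene in zinc-PBS replicate 1 over its mean in the other 5 PBS libraries (log axis), for 8 gene lists and genes with at least 10 normalized counts in one of the 6 libraries. The solid line marks equal levels and the dotted line a ratio of 2. Cxcl1 (38.3) and Cxcl10 (13.7) lead the ligands, and the Kupffer cell, endothelial and hepatocyte markers lie near 1.

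The other genes of the chemokine system were read from fixed lists. With Dex, 4.79% of all genes tested were called lower in plain-water mice and 5.11% in zinc-drinking mice. Of 26 further chemokine ligands 8 had an adjusted p in the Dex comparisons, and only Cxcl11, the third interferon-induced ligand of Cxcr3, was called. It had 15.8, 17.3 and 29.7 normalized counts in water-PBS, 31.6, 27.1 and 34.4 in zinc-PBS, then 3.05, 4.25 and 4.95 with Dex on plain water and 1.09, 6.67 and 4.81 with Dex on zinc, so that the Dex and PBS libraries did not overlap. Cxcl11 fell by 2.35 ± 0.56 in plain-water mice (adjusted p = 2.80e-04) and had an LFC of -2.89 ± 0.55 in zinc-drinking mice (adjusted p = 1.84e-06). The median LFC of the tested ligands was -0.23 and -0.16, against -0.011 and -0.007 over all genes tested. Ccl1, Cxcl3 and Cxcl15 had no count in any library, and Ccl25 was the most abundant of the list.

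Of 22 chemokine receptors 11 had an adjusted p. With Dex in plain-water mice 3 were called lower and 0 higher. Of all genes tested 4.79% were called lower and 4.89% higher there, and 5.11% and 5.39% with Dex in zinc-drinking mice. The 3 were Cxcr6, the receptor of Cxcl16, Ccr2, the receptor of Ccl2, and Ackr1, a scavenger of inflammatory chemokines. Cxcr6 fell by 2.55 ± 0.68 (adjusted p = 0.00142), from 19.95, 13.7 and 14.3 to 1.02, 1.06 and 5.94 normalized counts. Ccr2 fell by 1.38 ± 0.43 (adjusted p = 0.0099), from 31.5, 22.8 and 25.3 to 11.2, 5.32 and 13.9. With zinc Cxcr6 and Ccr2 were called lower too, with an LFC of -2.37 ± 0.61 (adjusted p = 9.84e-04) and -1.80 ± 0.43 (adjusted p = 2.82e-04), and both calls were kept without zinc-PBS replicate 1. Ackr2, another scavenger, was called higher there only without that library. Ackr2 was also called higher in zinc-Dex against water-PBS, by 1.10 ± 0.33 (adjusted p = 0.00495). The median LFC of the tested receptors was -0.65 with plain water and -0.87 with zinc. Ccr8 had no count, and no receptor was called for zinc with or without Dex.

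With Dex in plain-water mice 4.89% of all genes tested were called higher and 4.79% lower, and in zinc-drinking mice 5.39% and 5.11%. Among the 26 regulators 21 were tested, and with Dex in plain-water mice 4 were called higher and 4 lower. Those that rose were Tsc22d3 and Dusp1, known glucocorticoid targets that restrain NF-kB and MAP kinases, Nfkbia, the inhibitor of NF-kB, and Zfp36, which destabilizes cytokine mRNAs. Tsc22d3 rose by 2.28 ± 0.14 (adjusted p = 1.85e-55) and Nfkbia by 1.67 ± 0.44 (adjusted p = 0.00149). Those that fell were the cytokine gene Il1b, the interferon-regulated transcription factor gene Irf1, Socs3 and Nfkbie. Il1b went from 29.4, 26.4 and 28.6 to 4.06, 0 and 2.97 normalized counts and Irf1 from 466, 469 and 495 to 98.5, 63.8 and 84.1. With zinc 2 were called higher and 7 lower, which became 4 and 4 without zinc-PBS replicate 1, with the same gene names as in plain-water mice. Calls of Relb, Tnfaip3 and Nfkb2 were present only with that library. Tsc22d3 had the highest mean of the list, and Ifnb1 had no count.

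**Figure D5:**
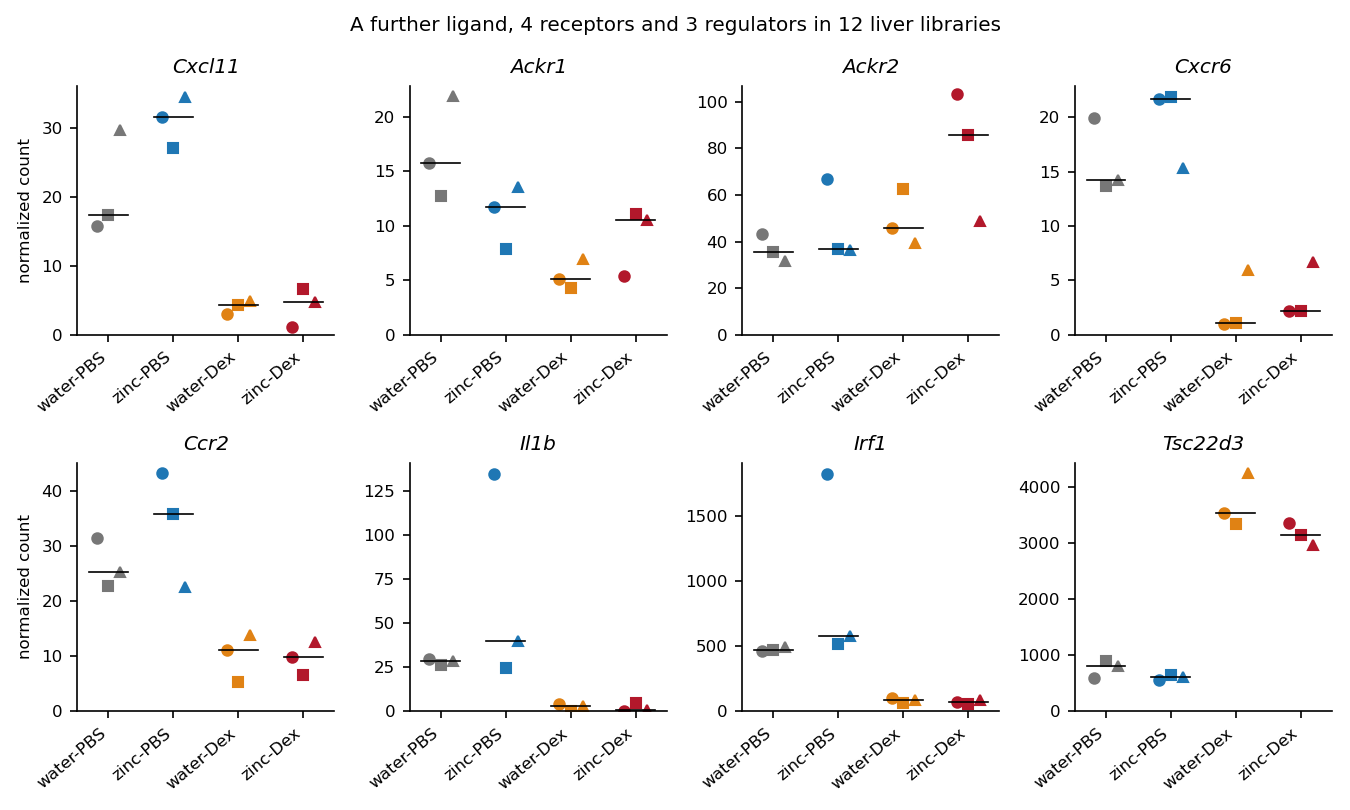
Normalized counts of the ligand gene Cxcl11, the receptor genes Ackr1, Ackr2, Cxcr6 and Ccr2 and the regulators Il1b, Irf1 and Tsc22d3 in the 12 libraries, with circles, squares and triangles for replicates 1, 2 and 3 and bars for group medians. The Dex libraries lie below the PBS libraries of Cxcl11, Cxcr6, Ccr2, Il1b and Irf1, and above those of Tsc22d3.

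Of 16 acute phase genes 14 were tested. With Dex in plain-water mice 4 were called higher and 0 lower, against 4.89% and 4.79% of all genes tested. The 4 were Lcn2, Lbp, Orm3 and Hp, and Lcn2 rose by 4.51 ± 0.57 (adjusted p = 1.05e-13). With zinc 3 were called higher (Lcn2, Orm3 and Hp) and 0 lower, against 5.39% and 5.11% of all genes. Without zinc-PBS replicate 1, Saa3 was also called higher in plain-water mice. Fga had the highest mean of the list.

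Markers of the cells that may make or answer these ligands were read in the same way. In the Dex comparisons with a PBS group, 4.79% to 5.63% of all genes tested were called lower and 4.89% to 5.59% higher. The 8 Kupffer cell markers summed to 4916 to 6771 normalized counts in water-PBS and 5225 to 6371 in water-Dex, and to 5558 to 5926 and 5196 to 5764 in the zinc-PBS and zinc-Dex groups; all 8 were tested and 0 called in the 6 comparisons. Sinusoidal endothelial markers summed to 3809 to 4214 and 3883 to 4421; of 6, Lyve1 was called higher and Kdr lower in each Dex comparison with a PBS group. Of 6 stellate cell and fibroblast markers, Pdgfrb was called lower in those comparisons. The 5 monocyte markers summed to 17080 to 24830 in water-PBS and 20840 to 22290 in water-Dex, with 3 tested and 0 called. Fn1, which hepatocytes also express, made up nearly all of this sum (20900 of 21030 in zinc-PBS replicate 1). The sum therefore says little about monocytes. Of 7 neutrophil markers 4 were tested and 0 called in water-Dex against water-PBS, with sums of 29.1 to 33.0 and 19.1 to 50.5, and Mmp8 alone was called higher in zinc-Dex against water-PBS. The 5 B cell markers summed to 117 to 131 in water-PBS and 56.4 to 68.0 in water-Dex, and Ms4a1 was called lower there, by an LFC of -2.80 ± 0.90 (adjusted p = 0.0128). The zinc-PBS and zinc-Dex sums were 104 to 188 and 74.4 to 116, with 0 called. For the 7 T and NK cell markers the sums were 39.1 to 45.2 and 27.4 to 37.6, with 5 tested and 0 called. The 6 hepatocyte markers, which check the tissue named in the labels, summed to 1223000 to 1438000 in water-PBS and 1636000 to 1759000 in zinc-Dex. Of them Cyp3a11, a known Dex target, was called higher with Dex in each water type. No marker of bile duct (5 genes) or mesothelium (4 genes) was called, and of 6 pancreas markers Prss2, Cela3b, Cpa1 and Pnlip had no count. The summed receptors were at 256 to 322 in water-PBS and 185 to 201 in water-Dex. The part of the leukocyte markers in the lower Ccr2, Cxcr6 and ligand counts was not tested.

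The genes whose levels followed each ligand most closely were taken by Pearson correlation of log2(normalized count + 1) over the 12 libraries, among 9568 genes with a mean of at least 50. These correlations describe 12 points that share 4 treatment groups, and are given without a test. For Cxcl10 they were Icam1 (r = 0.979), Ier5 (0.972) and Socs3 (0.966), which stayed at 0.958, 0.954 and 0.939 over the 11 libraries without zinc-PBS replicate 1. For Cxcl1 they were Rnd1 (0.966), Tlr2 (0.964) and Junb (0.953), and 0.92, 0.909 and 0.922 over 11. Ranked over the 11 libraries, other genes came first, led by Zswim6 (0.982) for Cxcl1 and Cep170b (0.987) for Cxcl10. Cxcl2 was closest to Tnfaip3 (0.923), Nfkbiz (0.855) and Mup7 (0.804), and over 11 libraries these fell to 0.618, 0.122 and -0.048, so that the likeness rested on that library.

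Cxcl9 was closest to Sp100 (0.91), Peak1 (0.907) and Slfn5 (0.904). The Ccl2 pattern was close to those of Smlr1 (0.977) and Csk (0.965). Ccl6 was closest to Eci2 (0.988), Thbd (0.982) and St3gal5 (0.978), and Ccl9 to H3f3b (0.982), Map2k3 (0.973) and Mia2 (0.972). The Cxcl12 pattern was nearest to Pigs (0.957), Arhgef19 (0.923) and Pcnx4 (0.914), that of Cxcl16 to Zfp367 (0.949), Rbfox2 (0.948) and Lama4 (0.944), and that of Cxcl13 to H3f3a (0.804), Fkbp2 (0.774) and Mettl3 (0.764). For these 6 ligands and Cxcl9 the values over 11 libraries differed little, between 0.737 and 0.99.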

How the data were processed

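Per the labels and the study's methods, the authors sequenced total liver RNA on stranded single-end libraries, trimmed the reads with Trimmomatic, aligned them to mm10 with HISAT2 2.0.4 and counted reads per gene with featureCounts. The deposited values are raw counts per Ensembl gene for 12 libraries. Multimapping reads were left out, which can lower counts of near-identical genes. The 10 members were matched by symbol. Counts of all 54838 identifiers were fitted with DESeq2 1.42.0 (a group term over 12 libraries, Wald test, default filtering, Benjamini-Hochberg adjustment), as the authors used DESeq2. The contrasts were the 5 pairs of groups reported and the interaction. Totals of 9091152 to 12303527 counts limit the precision of genes with under about 10 counts. Replicate pairs differed by 6.20 to 20.7 times the sampling noise (chi-square per degree of freedom), so none was a repeated library. The fits were tested on simulated data. Named were all 10 members, genes of the lists called in any comparison and list genes at 0 or with the highest mean. For each member the 3 genes with the largest r were named too. The leading genes of zinc-PBS replicate 1, with Saa1, S100a8, S100a9 and Retnlg, were chosen once their values had been seen. The members and the 15 lists were chosen with earlier results of these data known. Alternatives used edgeR 4.0.16 (quasi-likelihood), limma 3.58.1 (voom with sample weights), TMM factors, other filters, no fold threshold, a replicate block, only the 6 libraries compared and each library left out. R 4.3.3 was used. Some genes that the naming rule covers are not reported here.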

Additional observations from a re-analysis of the deposited data

Results flagged for a closer look

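Cxcl13 stood out because the means of its zinc-drinking groups differed from those of plain water in opposite directions without and with Dex. Each zinc-PBS library (114, 97.9 and 73.3 normalized counts) was above the water-PBS mean of 56.4, and each zinc-Dex library (47.8, 48.9 and 67.3) was below the water-Dex mean of 96.0. The interaction was -1.56 ± 0.79 on the log2 scale, with an unadjusted p of 0.0465 and an adjusted p of 1.0 in DESeq2, so the difference did not pass the correction. Without zinc-PBS replicate 1 it was -1.41. The water-Dex mean rests on replicate 1 at 197, beside 41.5 and 49.5 in the other libraries of that group. Zinc-Dex and water-Dex overlapped. The LFC for zinc with Dex was -0.81 and turned to 0.27 without water-Dex replicate 1, so the opposite direction rests on that library. Over the 19 alternatives, leaving out single libraries among them, the interaction ran from -1.92 to -0.48, the latter without water-Dex replicate 1.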

How the results depend on the processing

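Of 9 calls of single members in the Dex comparisons, 5 were kept in each of 20 alternatives (3 of Ccl2 and 2 of Ccl9). Over all 9, 166 values kept the call and 14 lost it, all of them of Cxcl1 and Cxcl10. For water-Dex against water-PBS the count of called members was 2 and became 1 with edgeR, without independent filtering and with limma voom, 5 with no fold change threshold, and from 1 to 3 with one library left out (1 without any water-PBS replicate or without water-Dex replicate 1). For zinc-PBS against water-PBS, leaving out one library gave 0 to 1 calls, the 1 being Cxcl1 without zinc-PBS replicate 2 or 3. With no fold change threshold zinc-Dex against water-Dex gave 1 and zinc-Dex against water-PBS gave 6. Values of uncalled members that changed sign with one library left out ranged, for zinc-PBS against water-PBS, from -0.33 to 0.03 (Cxcl9), from -0.09 to 0.05 (Cxcl12) and from -0.11 to 0.05 (Ccl6). For zinc-Dex against water-Dex they ranged from -0.29 to 0.98 (Cxcl1), from -0.43 to 0.02 (Cxcl9), from -1.17 to 0.27 (Cxcl13) and from -0.17 to 0.07 (Cxcl16). Cxcl13 ranged from -0.31 to 1.12 for water-Dex and from -0.22 to 0.05 for zinc-Dex, each against water-PBS, and the interaction of Cxcl9 from -0.31 to 0.14. In limma voom Cxcl12 for zinc-PBS was 0.01 and the Cxcl9 interaction 0.05. The cause was not tested.

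A replicate block gave the same counts of calls as no block, 2 for water-Dex and 4 for zinc-Dex against their PBS groups, and turned the LFC of Cxcl1 in zinc-Dex against water-Dex to -0.05. The labels do not say what libraries of the same number shared. Correlations of their deviations from the group means ran from -0.204 to 0.191, with 1 of 18 pairs over 0.1. For pairs of different numbers they ran from -0.245 to 0.284, with 7 of 36 over 0.1. These correlations cannot show whether same-numbered libraries shared a batch. TMM factors shifted no comparison by more than 0.006 on the log2 scale.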
